A study of Mus musculus with 8 samples.

Results

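The Slc39 genes encode the ZIP family of zinc importers, and 10 of them, Slc39a1, Slc39a4, Slc39a6, Slc39a7, Slc39a8, Slc39a9, Slc39a10, Slc39a11, Slc39a13 and Slc39a14, are described here across the step from pregnancy to milk secretion. They were found by gene symbol among the 25050 genes of a microarray table, where each had 1 probe set. RNA came from mammary epithelial cells of female FVB mice at their first parity, with 4 arrays at lactation day 4 (secretory activation) and 4 at pregnancy day 14 (secretory differentiation). All samples are titled WT, no allele or agent is named in their labels, and adipocytes were removed in every sample by rapid enzymatic digestion of the tissue. The labels do not say whether an array held 1 mother or a pool, so the p-values reflect only how these samples varied, and that variation may be technical.

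ZIP proteins move zinc into the cytosol, either from outside the cell or out of the endoplasmic reticulum, Golgi and vesicles, while the Slc30 (ZnT) proteins move it the other way. A lactating gland takes up zinc from blood and secretes it into milk for the newborn. Free zinc is buffered by metallothioneins, whose genes are switched on by the zinc-sensing factor MTF-1.

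Of the 10 genes, 6 were higher and 1 was lower at lactation day 4 in limma (adjusted p under 0.05 over all 25050 genes), where 25.8% of all genes were called, 9.73% higher and 16.1% lower. That background depends on the scaling, since higher calls were 14.8% of all genes with arrays centred on their median and 24.3% with centring on the brighter 60% of genes, and 7 of the 10 genes were higher under each. Without the dimmest 40% of genes, 12.9% of genes were higher and 28.1% lower. All 10 genes passed this filter on their mean over all arrays, but Slc39a4 did so only through its pregnancy arrays. In that fit 7 of the 10 genes were higher and 1, Slc39a4, was lower. The median log2 fold change was 0.50 over the 10 genes and 0.01 over all genes. The changes were very unequal. Slc39a8 rose 7.58-fold and Slc39a6 2.94-fold, 4 others rose less than 2-fold, Slc39a4 measured 12.0-fold lower with lactation values near the dim end of the array, and Slc39a9, Slc39a13 and Slc39a14 did not pass the threshold. Changes of at least 2-fold that passed the threshold were found in 3 of the 10 genes, against 3.29% of all genes, 2 of them higher (1.58% of all genes) and 1 lower (1.71%).

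RefSeq promoters (GRCm38.p6, from 250 bases before the start to 50 after it) were at hand for 7 of the 10 genes, in 10 entries. Both strands were searched for the metal response element bound by MTF-1, spelled TGCACNC or TGCGCNC, and for TTCNNNGAA, the site of STAT factors, which include the prolactin-activated STAT5. Overlapping matches were each counted, and no match of either motif overlapped one of the other in these promoters. Metal response element letters were in 4 of the 10 entries, from Slc39a8, Slc39a11 and Slc39a13, and in 25.7% of 32851 mouse promoters of the same length. For comparison, the Mt2 promoter held 4 matches and that of Mt1 held 3, a number reached by 1.97% of promoters. The STAT letters were in 1 of the 10 entries, of Slc39a10, and in 8.3% of all promoters. The stretches that hold these letters before the start of genes that rose are shown 5′ to 3′ on the gene's strand with the match in capitals. A match is a description of letters, not a binding site.
Slc39a8, chr3:135825627-135825656, plus strand, match 19 bases before 1 of 2 starts: ttatctctaaaGGGTGCAgggcctgatctc
Slc39a11, chr11:113650093-113650122, minus strand, match 15 bases before 1 of 2 starts: gttaaaagggaaggaGAGCGCAgcgaaccc
Slc39a11, chr11:113565937-113565966, minus strand, match 140 bases before the other start: tttcctggggtGTGTGCActgccctaggcc
Slc39a10, chr1:46925777-46926026, minus strand, match 82 bases before 1 of 2 starts: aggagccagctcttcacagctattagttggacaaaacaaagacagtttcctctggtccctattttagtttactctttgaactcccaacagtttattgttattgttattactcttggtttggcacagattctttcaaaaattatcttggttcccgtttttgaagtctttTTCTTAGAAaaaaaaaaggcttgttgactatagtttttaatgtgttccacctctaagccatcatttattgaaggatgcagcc

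All values below are GC-RMA log2 values per array, a scale on which a difference of 1 is a 2-fold difference. They do not allow the level of a gene to be set against that of another, because probe sets differ in brightness. None of the 10 genes was among the dimmest 40% of genes, and their means over the 8 arrays lay at the 67.6th to 96.5th percentile. Slc39a4 stood above that limit through its pregnancy arrays, since its lactation mean was among the dimmest 40% of lactation means. Across genes, the correlation between arrays was at least 0.9865 within lactation, at least 0.9898 within pregnancy and at most 0.9777 between arrays of different stages. Some arrays were the lowest or highest of their stage by a wide gap in the mean of markers of other cell types. Lactation replicate 2 was low in fibroblast markers (6.47, where the remaining 3 of its stage had 7.40 to 7.77) and endothelial markers (7.46, where they had 8.49 to 8.95). Pregnancy replicate 4 was low in adipocyte markers (5.19, where the remaining 3 had 6.37 to 6.75), and pregnancy replicate 2 was high in fibroblast markers (8.91, where the remaining 3 had 8.07 to 8.21). By Dixon's test, given below, only the fibroblast mean of pregnancy replicate 2 stood apart from the rest of its stage. Without lactation replicate 2 and pregnancy replicate 4, 7 of the 10 genes were higher and 1 was lower, against 6.55% and 11.4% of all genes. Without pregnancy replicate 2 as well, 5 were higher and 1 was lower, where Slc39a1 missed the threshold (adjusted p = 0.0923 in limma) and 4.10% of all genes were higher and 7.08% lower. The log2 fold change was then 2.66 for Slc39a8 and -3.69 for Slc39a4. Both of these settings were chosen after seeing the data.

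**Figure D1:**
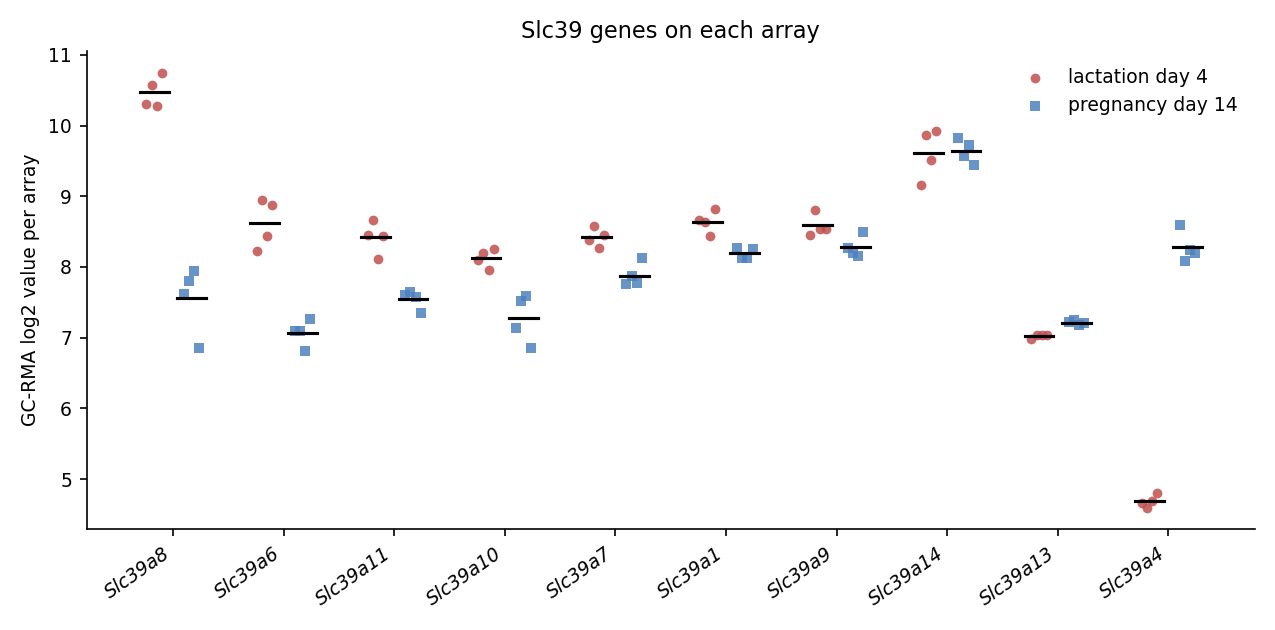
GC-RMA log2 value (vertical axis) of each Slc39 gene on each of 4 lactation day 4 arrays (red circles) and 4 pregnancy day 14 arrays (blue squares), with genes ordered by their change and a black line at each mean. The stages are far apart for Slc39a8 and Slc39a4, in opposite directions. They overlap for Slc39a14, where lactation values lie both below and above the pregnancy range.

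Slc39a4 encodes the importer that takes up dietary zinc at the apical membrane of the intestine, and its loss in humans causes the zinc deficiency disease acrodermatitis enteropathica. It measured 4.67, 4.60, 4.69 and 4.80 on the lactation arrays, against 8.59, 8.08, 8.24 and 8.20 on the pregnancy arrays. The nearest arrays of the 2 stages were 3.28 log2 units apart. The mean was 4.69 ± 0.09 in lactation and 8.28 ± 0.22 in pregnancy (SD, n = 4 each), a log2 fold change of -3.59 (SE 0.118, 95% confidence interval -3.85 to -3.33, limma adjusted p = 2.20e-07). The lactation mean lay at percentile 39.3 of the lactation means of all genes and the pregnancy mean at percentile 89.4 of the pregnancy means. Whether the lactation signal was above background was not tested, so the size of the change is that between the measured values.

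Slc39a8 encodes ZIP8, a plasma membrane importer of zinc, manganese, iron and cadmium. It measured 10.31, 10.57, 10.28 and 10.75 in lactation, against 7.62, 7.80, 7.94 and 6.86 in pregnancy. Every lactation array was above every pregnancy array by at least 2.34 log2 units, and pregnancy replicate 4 was the lowest of its stage. The mean was 10.48 ± 0.23 in lactation and 7.56 ± 0.48 in pregnancy (SD, n = 4 each), a log2 fold change of 2.92 (SE 0.215, 95% confidence interval 2.44 to 3.40, limma adjusted p = 1.77e-05), and 18 genes had a larger rise.

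Slc39a14 encodes ZIP14, the closest relative of ZIP8, which imports manganese and non-transferrin-bound iron as well as zinc. Its values were 9.16, 9.87, 9.51 and 9.93 in lactation and 9.82, 9.57, 9.73 and 9.45 in pregnancy. The stages overlapped, with lactation arrays both below and above the pregnancy range. The log2 fold change was -0.02, with a 95% confidence interval from -0.38 to 0.34 (limma adjusted p = 0.928). The difference between Slc39a8 and Slc39a14 on the same array averaged 0.86 ± 0.20 in lactation and -2.09 ± 0.39 in pregnancy (SD, n = 4 each). Slc39a8 therefore changed by 2.95 log2 units more than Slc39a14 (two-sided exact permutation test over the 8 arrays, p = 0.0286, the smallest that 70 splits allow, and 0.0429 adjusted over 3 pairs of relatives).

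Slc39a6 and Slc39a10 encode ZIP6 and ZIP10, plasma membrane importers that are close relatives and can join in a complex. Slc39a6, first described as the estrogen-regulated gene LIV-1 in human breast cancer cells, measured 8.22, 8.95, 8.43 and 8.88 in lactation, against 7.09, 7.09, 6.81 and 7.26 in pregnancy. The stages were 0.96 log2 units apart at their nearest arrays, and the log2 fold change was 1.56 (SE 0.169, 95% confidence interval 1.18 to 1.93, limma adjusted p = 0.00019). Slc39a10 measured 8.09, 8.20, 7.96 and 8.25 in lactation, against 7.13, 7.51, 7.58 and 6.86 in pregnancy. It was higher on all lactation arrays, with a gap of 0.38 log2 units and a log2 fold change of 0.85 (SE 0.157, 95% confidence interval 0.50 to 1.20, limma adjusted p = 0.00353). Pregnancy replicate 4 was the lowest array for Slc39a10, as it was for Slc39a8, but the highest of its stage for Slc39a6. The change of Slc39a6 exceeded that of Slc39a10 by 0.70 log2 units, a difference that missed the threshold (two-sided exact permutation test over the 8 arrays, p = 0.0571, and 0.0571 adjusted over 3 pairs). It also missed the threshold under 9 of 10 alternatives. The exception, without pregnancy replicate 4, gave an unadjusted p = 0.0286 in the exact permutation test, the smallest that so few arrays allow.

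Slc39a1 encodes ZIP1, a widely expressed plasma membrane importer. It measured 8.67, 8.64, 8.44 and 8.82 in lactation, against 8.26, 8.12, 8.13 and 8.25 in pregnancy. The stages did not overlap, with a gap of 0.17 and a change of 0.45 log2 units (SE 0.0938, 95% confidence interval 0.24 to 0.66, adjusted p = 0.0067 in limma). The adjusted p in limma was 0.0923 without lactation replicate 2 and pregnancy replicates 2 and 4. A separate probe set named for the pseudogene Slc39a1-ps also rose, by 0.32 (limma adjusted p = 0.0382), and since a gene and its pseudogene can share signal on an array, the value of Slc39a1 is uncertain as to its source.

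**Figure D2:**
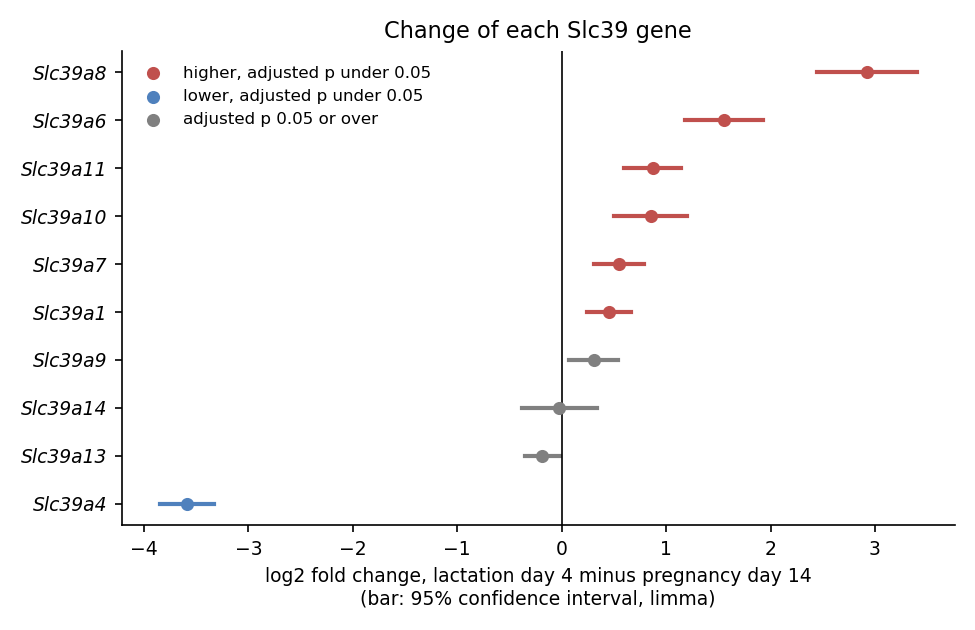
Log2 fold change of each Slc39 gene, lactation day 4 minus pregnancy day 14 (horizontal axis), as a point with its 95% confidence interval from limma, genes ordered from the largest rise to the largest fall. Intervals of Slc39a8 (2.44 to 3.40) and Slc39a4 (-3.85 to -3.33) lie far from 0, and that of Slc39a14 (-0.38 to 0.34) spans it.

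The other members act mainly on zinc inside the cell. Slc39a7 encodes ZIP7, which releases zinc from the endoplasmic reticulum into the cytosol. It measured 8.39, 8.58, 8.27 and 8.46 in lactation, against 7.76, 7.87, 7.77 and 8.12 in pregnancy. The stages were separate by 0.15 log2 units, pregnancy replicate 4 being nearest to the lactation arrays, and the log2 fold change was 0.55 (SE 0.106, 95% confidence interval 0.31 to 0.78, limma adjusted p = 0.00475).

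Slc39a11 encodes ZIP11, of a separate branch of the family and found in the Golgi and nucleus. It measured 8.46, 8.66, 8.12 and 8.44 in lactation, against 7.61, 7.65, 7.58 and 7.35 in pregnancy. All lactation arrays were higher, with a gap of 0.47 and a log2 fold change of 0.87 (SE 0.122, 95% confidence interval 0.60 to 1.14, limma adjusted p = 0.000786).

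Slc39a9 encodes ZIP9, a Golgi zinc importer. It measured 8.46, 8.81, 8.54 and 8.54 in lactation, against 8.27, 8.20, 8.15 and 8.49 in pregnancy. The stages overlapped only through pregnancy replicate 4, which lay just above lactation replicate 1. The log2 fold change of 0.31 (95% confidence interval 0.07 to 0.54) missed the threshold in limma (adjusted p = 0.0555), and passed it under 6 of 19 alternatives, among them without pregnancy replicate 4 (adjusted p = 0.0284) and after quantile normalization (adjusted p = 0.0268).

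Slc39a13 encodes ZIP13, an intracellular importer whose loss disturbs connective tissue in mice and humans. It varied least among the 10 genes, with 6.99, 7.04, 7.04 and 7.03 in lactation and 7.22, 7.24, 7.17 and 7.21 in pregnancy. All lactation arrays were lower, by at least 0.13 log2 units, but the log2 fold change of -0.19 (95% confidence interval -0.35 to -0.02) missed the threshold in limma with an intensity trend (adjusted p = 0.0939) and passed it without the trend (adjusted p = 0.0235). That was the only pass among 19 alternatives, and after quantile normalization the change was -0.05 (limma adjusted p = 0.669). The difference between Slc39a7 and its relative Slc39a13 on the same array averaged 1.40 ± 0.13 in lactation and 0.67 ± 0.17 in pregnancy (SD, n = 4 each). The changes of the 2 genes thus differed by 0.73 log2 units (two-sided exact permutation test, p = 0.0286, adjusted over 3 pairs 0.0429).

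**Figure D3:**
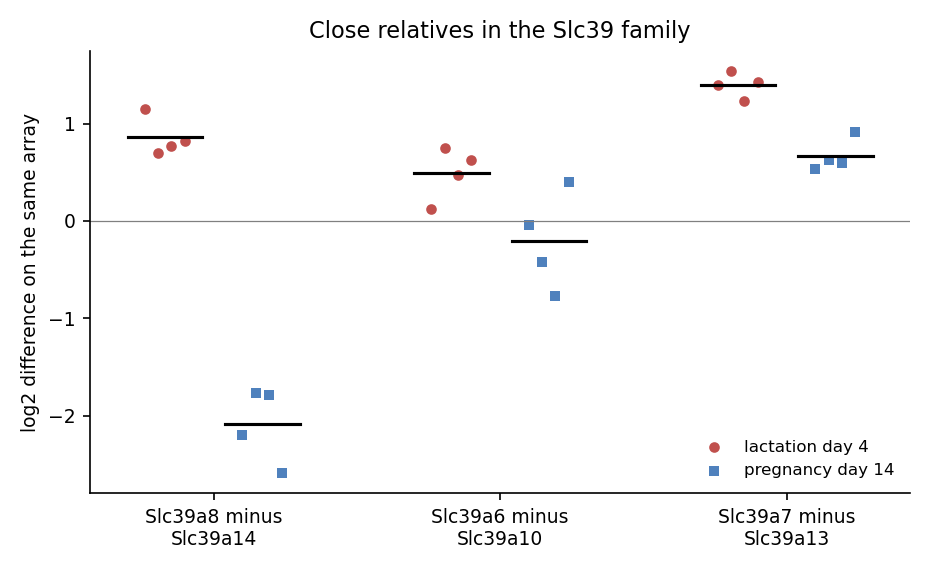
Log2 difference between 2 related Slc39 genes on the same array (vertical axis) for 4 lactation day 4 arrays (red circles) and 4 pregnancy day 14 arrays (blue squares), with a black line at each mean. The stages are separate for Slc39a8 minus Slc39a14 and for Slc39a7 minus Slc39a13, and overlap for Slc39a6 minus Slc39a10, and only the shift between stages can be read because probe sets differ in brightness.

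The 2 stages did not overlap in 8 of the 10 genes, against 29.6% of all genes. The members also differed in how far arrays of a stage spread, with SDs from 0.02 for Slc39a13 in lactation to 0.48 for Slc39a8 in pregnancy. In lactation, replicates 2 and 4 were the 2 highest arrays for Slc39a6, Slc39a8, Slc39a10, Slc39a7 and Slc39a14.

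None of the other 4 family genes on the array passed the threshold in limma, where 25.8% of all genes did. An unadjusted p under 0.05 was found in 0 of 4, and in 4255 higher and 5555 lower genes of all 25050. Slc39a3, a plasma membrane importer, averaged 6.67 ± 0.10 in lactation and 6.85 ± 0.02 in pregnancy (SD, n = 4 each), with all lactation arrays lower and a log2 fold change of -0.18 (adjusted p = 0.133 in limma). For Slc39a2, Slc39a5 and Slc39a12 the differences were 0.09, 0.15 and 0.04 log2 units (adjusted p = 0.388, 0.285 and 0.601 in limma), and Slc39a12 was among the dimmest 40% of genes, with means of 3.31 in lactation and 3.27 in pregnancy.

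Among the 10 Slc30 exporters, 3 rose and 1 fell, with a median log2 fold change of 0.24, where 25.8% of all genes were called. After quantile normalization 5 of them rose, where 9.58% of all genes did. When the brighter 60% of genes set each array's centre, 6 of them and 24.3% of all genes rose. Slc30a2, which loads zinc into secretory vesicles and is required for zinc in human milk, averaged 8.65 ± 0.12 in lactation and 6.07 ± 0.27 in pregnancy (SD, n = 4 each), a change of 2.58 log2 units (SE 0.134, adjusted p = 2.42e-06 in limma). Slc30a7, of the Golgi, rose by 0.64, and Slc30a4, which is mutated in the lethal milk mouse, rose by 0.56 (limma adjusted p = 0.00181 and 0.00535). For Slc30a4 the limma adjusted p was 0.0806 without lactation replicate 2 and pregnancy replicates 2 and 4. Slc30a1, the plasma membrane exporter and a known MTF-1 target, fell by 0.67 (limma adjusted p = 0.0164, but 0.051 without pregnancy replicate 3).

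Of 5 metallothionein and zinc-sensing genes, 2 fell and 0 rose in limma (1 rise at an unadjusted p under 0.05, Mt4, which also passed the adjusted threshold with arrays centred on their median), with a median log2 fold change of 0.08. Over all genes, 16.1% fell and 9.73% rose. Mt2 measured 7.28, 6.83, 7.05 and 7.89 in lactation, against 11.49, 10.85, 11.07 and 10.23 in pregnancy, a change of -3.65 log2 units (SE 0.276, adjusted p = 2.11e-05 in limma). Mt1 averaged 8.75 ± 0.12 in lactation and 9.78 ± 0.30 in pregnancy (SD, n = 4 each), a change of -1.03 log2 units (adjusted p = 0.000575 in limma). Mtf1, encoding the zinc-sensing factor, differed by 0.08 log2 units between the stages (adjusted p = 0.574 in limma). Mt2 and Slc39a4 were thus both far lower in lactation, each with the stages well apart.

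Because ZIP8 and ZIP14 also carry iron and manganese, 13 genes of these metals were read from the same fit. Of these, 5 rose and 1 fell, with a median log2 fold change of 0.16, where 9.73% of all genes rose and 16.1% fell. The Steap family genes Steap1 and Steap2 rose by 3.45 and 2.35 and the transferrin receptor Tfrc by 1.52, while Steap4 fell by 0.99 (limma adjusted p = 5.33e-07, 1.54e-05, 5.30e-05 and 0.00342).

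**Figure D4:**
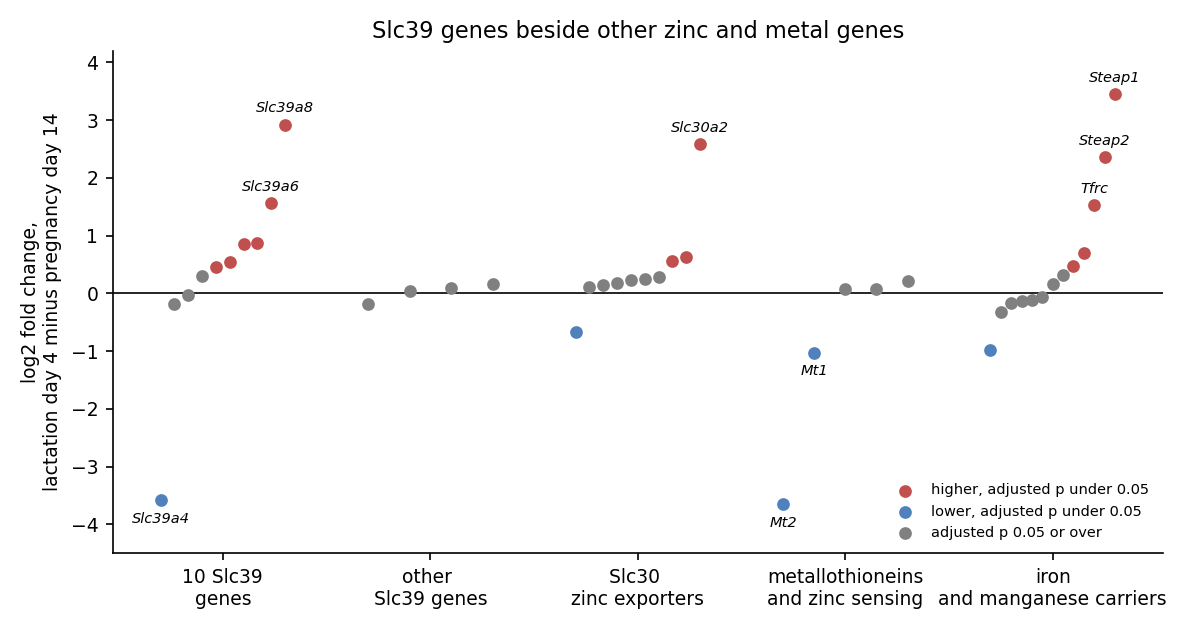
Log2 fold change, lactation day 4 minus pregnancy day 14 (vertical axis), of each gene (points) in 5 groups of metal genes, red where higher and blue where lower at an adjusted p under 0.05 in limma and grey otherwise. Slc39a8, Slc30a2 and Steap1 are the highest points of their groups, and Slc39a4 and Mt2 the lowest of theirs.

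The genes whose pattern over the 8 arrays was nearest to that of Slc39a8, by the root-mean-square difference after each of 18116 annotated genes was centred on its mean, were Isg20 (0.217), Odc1 (0.255), Ttyh1 (0.27), Slc9a4 (0.3) and Slc25a1 (0.301), with log2 fold changes of 2.48 to 2.94. Odc1 encodes ornithine decarboxylase of polyamine synthesis, and Slc25a1 the mitochondrial citrate carrier. Nearest to Slc39a4 were Plscr2 (0.171), the receptor Kit (0.23), Cyp1b1 (0.236) and Acot1 (0.244), with log2 fold changes of -4.00 to -3.40. These distances mostly follow the difference between the stages and are a description of 8 arrays.

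The arrays carried the labelled cell type, with the luminal keratin Krt8 at a mean of 9.97 in lactation and 10.93 in pregnancy and Csn2, beta-casein, at 12.72 in lactation and 12.36 in pregnancy. Of 9 luminal markers 7 fell and 1 rose in limma. Luminal list means per array were 8.33 to 8.45 in lactation and 9.53 to 9.84 in pregnancy. Markers of other cells were present at both stages. Among their lists, only the T cell and fibroblast means separated the stages, and the macrophage means overlapped. Macrophage markers fell in 3 of 8 cases, with list means per array of 5.99 to 7.06 in lactation and 7.02 to 7.63 in pregnancy, T cell markers in 5 of 6 (4.76 to 5.59 in lactation and 5.78 to 7.30 in pregnancy) and fibroblast markers in 6 of 7 (6.47 to 7.77 in lactation and 8.07 to 8.91 in pregnancy), and 0 rose in these lists in limma, at an unadjusted p under 0.05 too. Endothelial list means overlapped (7.46 to 8.95 in lactation and 7.80 to 8.72 in pregnancy), as did basal ones, with 1 of 8 markers up and 1 down, and adipocyte ones (6.15 to 7.47 in lactation and 5.19 to 6.75 in pregnancy), with 2 of 6 up. Milk protein genes rose in 7 of 7 cases. Beside these counts, 9.73% of all genes rose and 16.1% fell in limma. The part of these shifts in the changes of the Slc39 genes was not tested, and in such samples fewer cells of a type and less RNA per cell cannot be told apart.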

How the data were processed

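The authors deposited 1 log2 value for each probe set on each array, from Affymetrix whole-transcript arrays per the labels' protocols. The name of the table gives GC-RMA, a method with a background model based on probe sequence and a normalization across arrays. The submitters' processing notes list GCRMA and Partek, with no version, and the genome build is not given in the sources. No further normalization was applied. Of 35556 probe sets, 26836 carried a symbol, and symbols were updated with RefSeq (GRCm38.p6). For a gene with several probe sets, the one with the highest mean was used, and 25050 genes were tested. The other deposited table was identical in its values.

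The stages were compared in limma 3.58.1 (R 4.3.3) with an intensity trend in the empirical Bayes step and Benjamini-Hochberg adjustment over all genes, and 19 alternatives were run, 2 of them chosen after seeing the data. The number of arrays limits the precision, since a gene's 95% confidence interval reached 0.211 log2 units to each side at the median. The procedure was tested on simulated data, where it recovered 53.73% of shifts of 0.5 log2 units, 92.54% of shifts of 1 and 98.48% of shifts of 2. Of its 176 calls there, 13 were false. Far fewer genes were shifted in the simulation than were called in the data. Relatives were compared by an exact permutation test. Named genes were the 10 members, the other Slc39 genes, up to 4 called genes with the largest change per list, and the 5 genes nearest in pattern to the largest rise and fall, leaving out predicted genes, receptor segments, small RNAs and olfactory receptors. Of these, 1 gene is withheld and not reported here. Mtf1 and marker genes named beside a list were chosen with values known. The members and lists were chosen with earlier results of these data known.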

Additional observations from a re-analysis of the deposited data

Results flagged for a closer look

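Among 120 groups of 4 arrays, 5 had an array that stood apart from the other 3 by Dixon's test, where chance gives about 1 in 20. Slc39a13 measured 6.99 on lactation replicate 1, against 7.03 to 7.04 on the other lactation arrays, a gap that is small in size. Mt1 measured 8.92 on lactation replicate 4 and 8.68 to 8.71 on the others, and Cyp1b1 measured 4.60 on the same array and 4.23 to 4.27 on the others. Slc30a9 measured 7.73 on pregnancy replicate 4 and 7.47 to 7.51 on the other pregnancy arrays. The mean of the fibroblast markers was 8.91 on pregnancy replicate 2 and 8.07 to 8.21 on the other pregnancy arrays.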

How the results depend on the processing

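The 7 Slc39 genes called in limma kept their direction under all 19 alternatives and their call under all but 1, where lactation replicate 2 and pregnancy replicates 2 and 4 were left out together and Slc39a1 missed the threshold (adjusted p = 0.0923). The number called was 6 to 8, with 5 to 7 higher. In that setting, chosen after seeing the data and with fewer samples, 2800 of all genes were called, 1026 higher and 1774 lower, and Slc30a4 and the Golgi manganese pump gene Atp2c1 were not called. The number lower was 2 without the intensity trend, where Slc39a13 passed, and 1 under the other 18. When arrays were left out in turn, 7 to 8 Slc39 genes were called (6 to 7 higher, 1 lower), the log2 fold change of Slc39a8 was 2.69 to 3.05 and that of Slc39a4 was -3.65 to -3.48. Slc39a14 had log2 fold changes from -0.24 to 0.13 and was called under none. Over all genes, higher calls numbered 3719 after centring each array on its median and 6089 after centring on the brighter 60% of genes, against 2438, and the share of lower calls was 47.1% and 33.3%, against 62.3%. The cause was not tested. Without each array in turn higher calls numbered 1537 to 2487, the lowest without pregnancy replicate 3. Among Slc30 exporters, 5 rose after quantile normalization (9.58% of all genes rose) and 6 with centring on the brighter genes (24.3% of all genes rose). With an array left out, 3 to 4 exporters rose and 0 to 1 fell, the 0 being without pregnancy replicate 3. In the metallothionein list, 1 rose (Mt4) under each centring, and 0 to 1 with an array left out. The shift of Slc39a6 against Slc39a10 was 0.51 to 0.91 with an array left out. Same-numbered arrays of the stages had deviations correlated at 0.242, -0.164, 0.151 and 0.178. Differently numbered arrays had -0.303 to 0.276, so these values cannot settle whether the numbers pair the arrays. With the replicate block, the same 7 Slc39 genes were called (7 of 10) and 2 of 13 iron and manganese genes fell, where 10.1% of all genes were higher and 15.7% lower. In that setting the paired differences of 2.95 (Slc39a8 against Slc39a14) and 0.73 (Slc39a7 against Slc39a13) had an exact p of 0.125, the smallest that 4 pairs allow.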
